A study of Mus musculus with 8 samples.

Results

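Triglyceride is built from acetyl units in a fixed order of steps, and the mRNAs of 37 genes that carry out or control these steps were followed in cultured mouse fibro-adipogenic progenitors given melatonin or vehicle. The genes were chosen by name as a pathway list, from the supply of cytosolic acetyl-CoA to the last acylation. Earlier results of these data were known when the list was chosen. All 37 were found among the 20781 genes of the deposited counts, 36 had enough counts to be tested, and Mogat1 was the member left out of the test. Fibro-adipogenic progenitors are the mesenchymal cells of muscle that can turn into adipocytes or into cells that deposit matrix. The donors were wildtype male mice, C57BL/6J in the design text and C57BL/6 in the sample labels, and 3 uninjured hindlimb muscles were used (quadriceps, gastrocnemius and tibialis anterior). After 48 h the cells received vehicle (4 libraries, the controls) or melatonin (4 libraries) for 24 h in vitro, and neither group carries a transgene or an injury in the labels. The age of the mice and the melatonin concentration were not given. Each group is described as 4 biological replicates that are not tied to separate animals, so the p-values measure the spread between these libraries, which may be technical.

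In the cytosol, citrate exported from mitochondria is split to acetyl-CoA, which is carboxylated to malonyl-CoA and assembled into palmitate with reducing power from NADPH. Palmitate is then lengthened and desaturated, and fatty acids of any origin are joined to coenzyme A before use. Glycerol 3-phosphate takes up acyl chains in turn through lysophosphatidate, phosphatidate and diacylglycerol to triglyceride, the storage fat of adipocytes. The transcription factors SREBP-1 and ChREBP are known to drive many of these genes in liver and fat.

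Library totals ran from 35584931 to 52401153 counts. Levels are given in CPM, the usual counts scaled to a common library size, here after TMM scaling (a correction for library composition), and each list of 4 values runs from replicate 1 to 4. Each difference is the log2 ratio of melatonin to vehicle with its standard error (±), from edgeR's quasi-likelihood test over 16565 genes, and a gene passed at a Benjamini-Hochberg adjusted p under 0.05. Scaling by library totals alone would move the median of all genes from 0.01 to 0.17, so every change is relative to the TMM scaling. Pdgfra, the receptor gene that defines these progenitors, lay between 354 and 630.5 CPM in the 8 libraries. For many of the genes described here melatonin replicate 4 lay apart from the other 3 of its group, and results that rest on it are given with and without it.

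Most of the 37 genes were higher with melatonin, but not evenly along the pathway. In desaturation 5 of 5 rose, and in glycerol phosphate and lysophosphatidate acylation 2 of 6. Of the phosphatidate phosphatases 1 of 3 rose and 1 fell, and in acyl-CoA activation 2 of 4 rose and 2 fell. Of the 36 tested, 24 rose and 4 fell, so 77.8% passed in either direction. Among all tested genes 18.1% rose, 18.5% fell and 36.5% passed in either direction. The median log2 fold change of the members was 0.46, beside 0.01 for all tested genes. In 23 members all melatonin libraries lay above all vehicle libraries and in 3 all lay below, where 18.5% and 19.2% of tested genes did so. The largest increases were in Thrsp, Aqp7, Mlxipl, Gpd1 and Gpat3, the 5 members that rose at least 8-fold, a size reached by 25 of all tested genes. The member that fell most was Lpin3. With library totals in place of TMM factors 28 members passed as higher, with Acacb, Gpam, Gpat4 and Agpat3 added, and 2 as lower, with Me1 and Acsl4 lost. With the same library totals 5099 of all tested genes passed as higher and 2237 as lower, in place of 2992 and 3062. The number of members lower was also 2 without melatonin replicate 1.

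**Figure D1:**
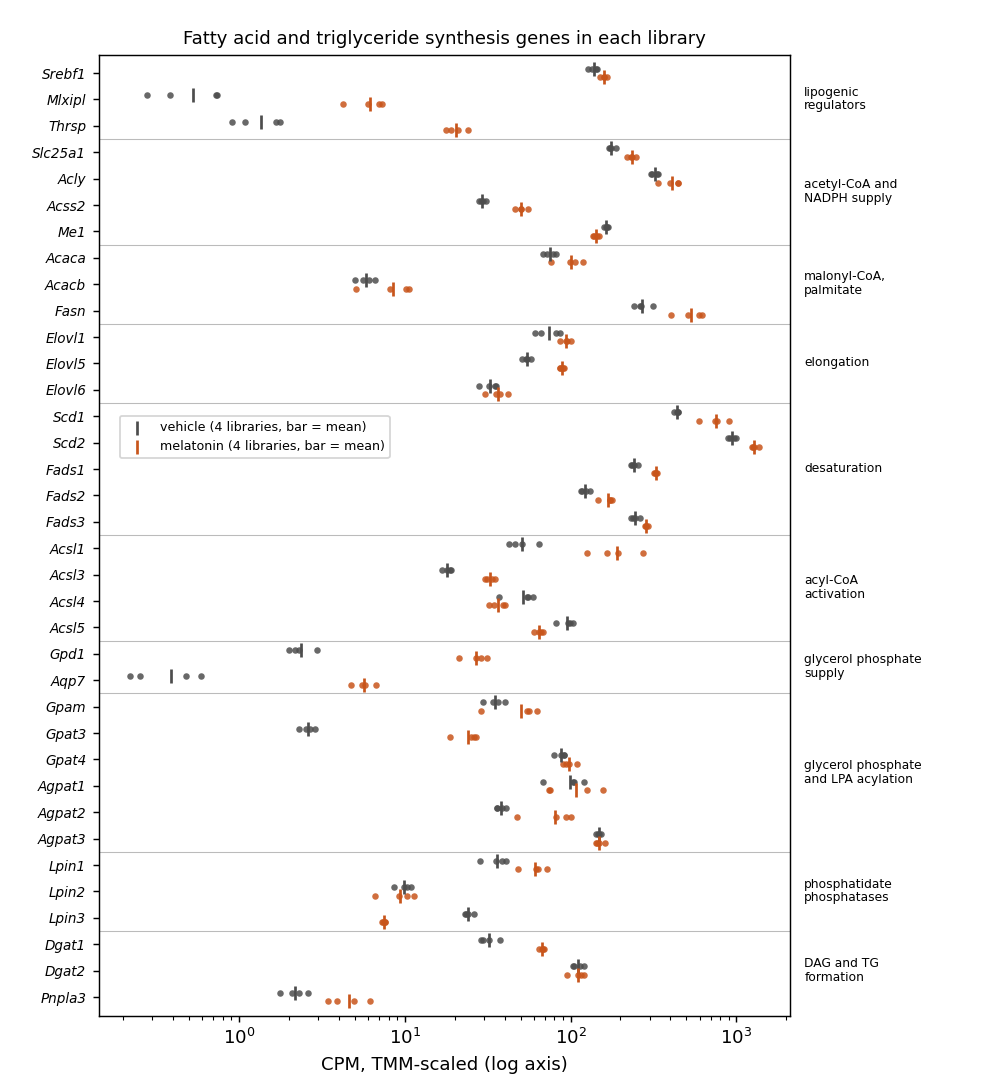
Level of each tested member in CPM (log axis) in the 4 vehicle libraries (grey) and the 4 melatonin libraries (orange), with bars at the group means and genes grouped by pathway step. Mlxipl, Thrsp, Gpd1, Aqp7 and Gpat3 lie far to the right with melatonin, and Lpin3 lies to the left.

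**Figure D2:**
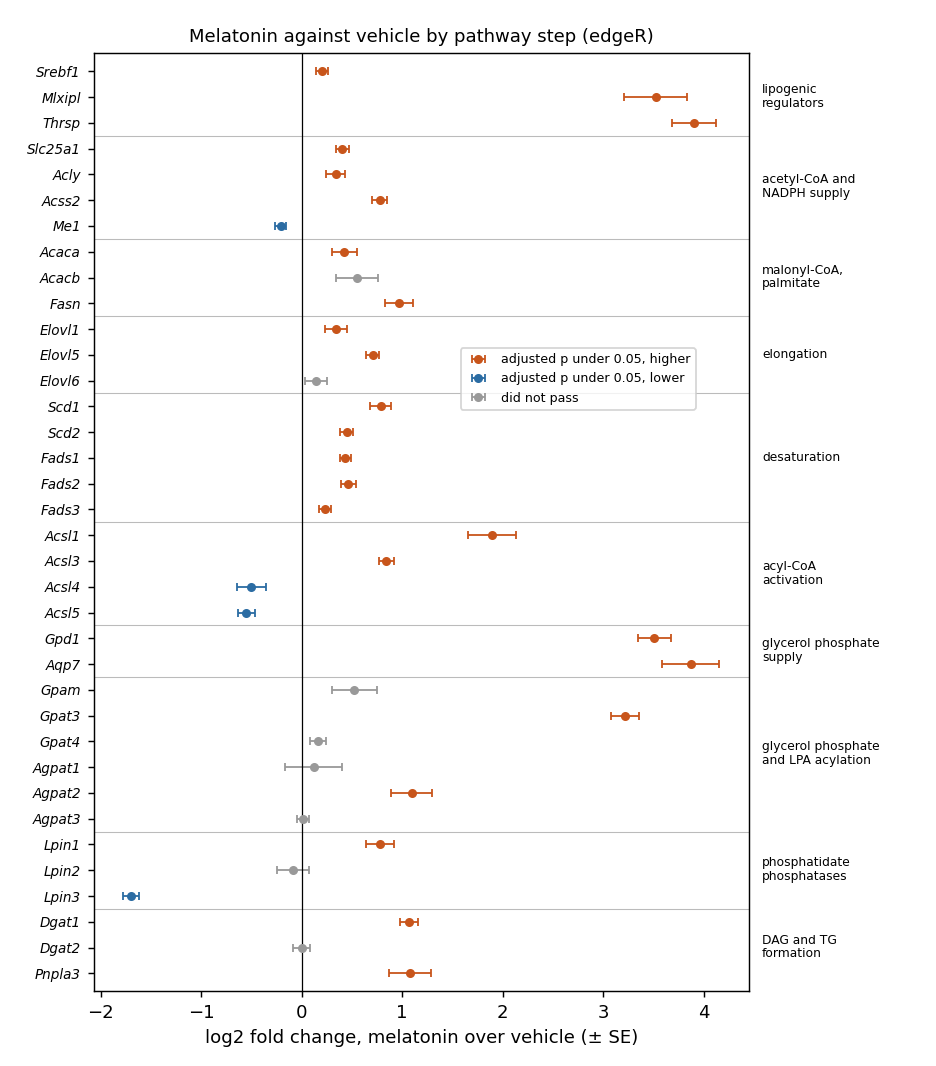
Log2 fold change of each tested member, melatonin over vehicle, with bars of 1 standard error from edgeR. Orange marks the 24 members that rose, blue the 4 that fell (Me1, Acsl4, Acsl5 and Lpin3) and grey the 8 that did not pass.

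Sequences just before the annotated starts are shown for Mlxipl, the transcription factor gene with the largest increase in the list, for Fasn, the palmitate synthase, and for Acsl1, the acyl-CoA synthetase that rose most. Each runs over 250 bases 5′ to 3′ on the gene's strand up to the base before the start, from RefSeq on GRCm38.p6. Capitals mark 3 searched motifs on either strand, namely the sterol regulatory element core TCACNCCAC, the palindromic E-box CACGTG and the CCAAT box, which can overlap. Of the 37 members, 30 matched this table.
Mlxipl, upstream start, chr5:135089640-135089889, plus strand: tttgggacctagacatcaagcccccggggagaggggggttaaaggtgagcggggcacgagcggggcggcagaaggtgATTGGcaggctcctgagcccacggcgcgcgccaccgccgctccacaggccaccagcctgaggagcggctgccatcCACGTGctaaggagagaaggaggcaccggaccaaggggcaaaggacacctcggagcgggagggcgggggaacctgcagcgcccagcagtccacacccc
Mlxipl, internal start, chr5:135106641-135106890, plus strand: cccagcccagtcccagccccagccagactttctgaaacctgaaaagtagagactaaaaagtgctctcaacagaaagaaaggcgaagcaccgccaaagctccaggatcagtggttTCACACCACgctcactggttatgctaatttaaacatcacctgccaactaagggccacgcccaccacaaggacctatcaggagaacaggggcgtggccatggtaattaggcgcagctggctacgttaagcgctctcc
Fasn, chr11:120824548-120824797, minus strand: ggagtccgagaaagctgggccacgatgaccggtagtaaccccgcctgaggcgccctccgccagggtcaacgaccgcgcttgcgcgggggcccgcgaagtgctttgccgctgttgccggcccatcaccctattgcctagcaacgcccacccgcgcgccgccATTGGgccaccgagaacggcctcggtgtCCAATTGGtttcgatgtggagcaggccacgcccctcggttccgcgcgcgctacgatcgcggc
Acsl1, upstream start, chr8:46470787-46471036, plus strand: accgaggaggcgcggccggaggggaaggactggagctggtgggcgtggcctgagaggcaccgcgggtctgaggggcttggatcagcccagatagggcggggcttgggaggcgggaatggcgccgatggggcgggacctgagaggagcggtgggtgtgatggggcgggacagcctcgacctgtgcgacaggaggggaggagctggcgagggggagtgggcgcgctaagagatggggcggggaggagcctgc
Acsl1, downstream start, chr8:46490716-46490965, plus strand: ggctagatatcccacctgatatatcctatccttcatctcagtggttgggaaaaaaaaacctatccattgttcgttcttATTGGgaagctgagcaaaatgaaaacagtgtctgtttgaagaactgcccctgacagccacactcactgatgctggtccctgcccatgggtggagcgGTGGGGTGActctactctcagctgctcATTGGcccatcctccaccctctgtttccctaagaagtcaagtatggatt
The upstream Mlxipl window held a CCAAT box and an E-box, their first bases 173 and 98 bases before the start, and the internal window held the sterol element core at 136 bases. In the Fasn window 3 CCAAT matches stood at 90, 62 and 59 bases, of which the last 2 overlap. The downstream Acsl1 window held the sterol element core at 76 bases between CCAAT boxes at 172 and 49 bases, and the window before the upstream start of Acsl1 held no match to these 3 motifs. Of 27025 genes in the table, 1.23% held the sterol element core in at least 1 such 250-base window, 6.86% the E-box and 37.5% the CCAAT box. Among the 30 members 2 held the sterol element core (Mlxipl and Acsl1), 4 the E-box and 18 the CCAAT box. A match is a run of letters and not a shown binding site. The deposited counts are per gene and do not separate transcripts from different starts.

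The lipogenic regulators rose, by very different amounts. Srebf1, the SREBP-1 gene (ENSMUSG00000020538, chromosome 11, 60199089 to 60222581 on the minus strand, GENCODE M21 on GRCm38), was at 128, 135, 145 and 142 CPM with vehicle and at 159, 158, 166 and 150.0 CPM with melatonin. The groups did not overlap, yet the difference was small, 0.20 ± 0.063 (adjusted p = 0.03). Srebf1 did not pass without vehicle replicate 1, 2 or 4. Mlxipl, which encodes ChREBP, the factor that answers to sugar (ENSMUSG00000005373, chromosome 5, 135089890 to 135138382 on the plus strand), was at 0.382, 0.278, 0.723 and 0.742 CPM with vehicle. With melatonin it was at 6.00, 7.04, 7.32 and 4.24 CPM, every library lying far above the highest vehicle library (3.52 ± 0.31, adjusted p = 2.3e-05). Thrsp, which encodes the lipogenic protein Spot 14 (ENSMUSG00000035686, chromosome 7, 97412938 to 97417730 on the minus strand), stood at 0.905, 1.09, 1.78 and 1.68 CPM with vehicle and at 24.05, 17.8, 20.8 and 19.1 CPM with melatonin (3.90 ± 0.22, adjusted p = 1.7e-06). Both genes had few counts in vehicle libraries and stayed below Srebf1 per length with melatonin. Per kilobase of exon Srebf1 was at 28.1 ± 1.2 CPM with melatonin, Thrsp at 9.34 ± 1.2 CPM and Mlxipl at 1.11 ± 0.25 CPM (SD, n = 4 each).

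The genes that supply acetyl-CoA rose modestly, while the NADPH gene of the list fell. Slc25a1, the mitochondrial citrate exporter, was at 175, 189, 172 and 171 CPM with vehicle and at 235, 247, 219 and 233 CPM with melatonin (0.40 ± 0.063, adjusted p = 0.00076). Acly, which splits citrate, went from 310.03, 307, 337 and 332 CPM to 447, 397, 444 and 337 CPM (0.34 ± 0.093, adjusted p = 0.017). The Acly groups touched, since melatonin replicate 4 lay just above the highest vehicle library, and without vehicle replicate 1 the gene did not pass. Acss2, which makes acetyl-CoA from acetate, rose more, from 29.03, 27.9, 31.04 and 29.5 CPM to 55.2, 46.04, 49.96 and 50.3 CPM (0.78 ± 0.074, adjusted p = 3.6e-05). Me1, the cytosolic malic enzyme that yields NADPH, moved the other way, with 159, 164, 166 and 169 CPM against 137, 139, 145 and 148 CPM. The fall of Me1 was 0.21 on the log2 scale (adjusted p = 0.014), and it did not pass with library totals, nor without melatonin replicate 1 or 2.

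Of the genes that turn acetyl-CoA into palmitate, 2 of 3 rose, and here the 4 melatonin libraries differed among themselves. Fasn, the multifunctional fatty acid synthase (ENSMUSG00000025153, chromosome 11, 120805846 to 120824547 on the minus strand), was at 262, 242, 266 and 316 CPM with vehicle. With melatonin it was at 591, 511, 619 and 403 CPM, a difference of 0.97 ± 0.14 (adjusted p = 0.00044) with no overlap. Acaca, the cytosolic acetyl-CoA carboxylase that makes malonyl-CoA for synthesis, went from 71.7, 67.99, 78.5 and 81.5 CPM to 106.7, 99.9, 119 and 76.3 CPM. It passed at 0.43 ± 0.13 (adjusted p = 0.024), but melatonin replicate 4 lay among the vehicle libraries. Acaca did not pass without vehicle replicate 1 or 2 or melatonin replicate 1 or 3. Acacb, the carboxylase at the mitochondrial surface, was scarcer, at 5.59, 5.0, 6.62 and 6.08 CPM with vehicle and 10.6, 8.18, 10.2 and 5.07 CPM with melatonin. It did not pass (0.55 ± 0.21, adjusted p = 0.068), and without melatonin replicate 4 it did, at 0.74. Acacb also passed with DESeq2 and with library totals.

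Elongase genes were not uniform. Elovl5, which lengthens polyunsaturated chains, had the clearest difference, with 51.1, 53.7, 54.6 and 57.8 CPM against 91.3, 86.4, 86.98 and 89.6 CPM (0.71 ± 0.06, adjusted p = 1.9e-05). Elovl1, an elongase of very long saturated chains, was at 61.5, 81.9, 66.3 and 85.96 CPM with vehicle and 93.9, 94.6, 86.8 and 99.97 CPM with melatonin. Its groups came close, at 0.34 ± 0.11 (adjusted p = 0.032), and the call was lost on leaving out vehicle replicate 1 or 3 or melatonin replicate 1, 2 or 4. Its exons share 53 bases with the antisense gene Cdc20, which also rose. Elovl6, which takes palmitate to stearate, was at 35.1, 28.2, 32.4 and 35.6 CPM against 35.5, 37.5, 41.7 and 30.6 CPM. The Elovl6 groups overlapped widely and it did not pass (0.15 ± 0.11, adjusted p = 0.33), with an approximate 95% interval from the standard error of -0.07 to 0.36.

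All 5 desaturase genes rose, with no overlap between groups in any of them. The stearoyl-CoA desaturases, which place the double bond of oleate and palmitoleate, were the most abundant members per length. Scd1 (ENSMUSG00000037071, chromosome 19, 44394455 to 44407879 on the minus strand) was at 438, 422, 444 and 443 CPM with vehicle and at 768, 742, 900.2 and 599 CPM with melatonin (0.78 ± 0.11, adjusted p = 0.00036). Scd2 (ENSMUSG00000025203, chromosome 19, 44293674 to 44306864 on the plus strand) was at 919, 964, 889.5 and 998 CPM with vehicle and at 1269, 1254, 1369 and 1250.05 CPM with melatonin (0.45 ± 0.064). Per kilobase of exon, Scd2 remained above Scd1 in both groups, at 173 ± 8.7 against 89.3 ± 2.1 CPM with vehicle and at 235 ± 10.3 against 154 ± 25 CPM with melatonin (SD, n = 4). The stearoyl-CoA desaturases are close paralogs, and reads that fit both could have been split between them. Of the front-end desaturases that make polyunsaturated chains, Fads1 was at 233 to 256 CPM with vehicle and 321 to 329.9 CPM with melatonin (0.43 ± 0.057). Fads2 was at 116 to 130.2 CPM with vehicle and at 147 CPM in melatonin replicate 4, where the other melatonin libraries had 173 to 178 CPM (0.47 ± 0.075). Fads3, a paralog of these, changed least, from 231 to 262 CPM with vehicle to 280.5 to 293 CPM with melatonin (0.23 ± 0.06, adjusted p = 0.014).

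The acyl-CoA synthetases, which activate fatty acids for any later use, split into members that rose and members that fell. Acsl1, the main form of adipocytes (ENSMUSG00000018796, chromosome 8, 46471037 to 46536051 on the plus strand), was at 46.01, 50.6, 64.9 and 42.6 CPM with vehicle and at 166, 193, 273 and 126 CPM with melatonin. It rose by 1.89 ± 0.24 (adjusted p = 0.00046), and its melatonin values spread widely, with replicate 3 highest and replicate 4 lowest. Acsl3, linked to lipid droplet growth, went from 18.7, 18.9, 16.9 and 17.9 CPM to 33.6, 31.3, 30.3 and 34.9 CPM (0.84 ± 0.077). It shares 244 exon bases with Utp14b, a scarcer gene on the same strand that rose too, from 2.29 to 3.51 CPM. Acsl5 went from 81.2, 96.7, 103.7 and 98.8 CPM to 66.3, 60.4, 64.4 and 68.7 CPM, with no overlap (-0.55 ± 0.084, adjusted p = 0.00065). Acsl4, which prefers arachidonate, was at 37.1, 55.02, 59.1 and 54.8 CPM with vehicle and 34.4, 39.0, 40.2 and 32.1 CPM with melatonin. Vehicle replicate 1 lay among the melatonin libraries, and the call for Acsl4 (-0.50 ± 0.14, adjusted p = 0.02) was lost without vehicle replicate 2, 3 or 4 or melatonin replicate 1, and with library totals.

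Both genes grouped here under glycerol phosphate supply, an enzyme gene and a glycerol channel gene, rose steeply. Gpd1, which reduces dihydroxyacetone phosphate to glycerol 3-phosphate (ENSMUSG00000023019, chromosome 15, 99717515 to 99725005 on the plus strand), was at 2.17, 2.29, 2.02 and 2.97 CPM with vehicle and at 28.7, 26.7, 31.2 and 21.2 CPM with melatonin (3.51 ± 0.16, adjusted p = 6.5e-07). Aqp7, the glycerol channel of adipocytes (ENSMUSG00000028427, chromosome 4, 41033074 to 41048139 on the minus strand), was at 0.221, 0.255, 0.592 and 0.481 CPM with vehicle and at 5.56, 5.79, 6.68 and 4.77 CPM with melatonin (3.87 ± 0.28, adjusted p = 7.3e-06). In both genes the lowest melatonin library lay far above the highest vehicle library. Aqp7 rests on few vehicle counts, 73 in all 4 libraries, against 1068 with melatonin.

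The acyltransferases that load glycerol phosphate changed in 1 gene of each kind. Gpat3, a glycerol phosphate acyltransferase of the endoplasmic reticulum (ENSMUSG00000029314, chromosome 5, 100845713 to 100899102 on the plus strand), was at 2.29, 2.87, 2.70 and 2.55 CPM with vehicle and at 26.02, 25.1, 26.95 and 18.9 CPM with melatonin. It rose by 3.22 ± 0.14 (adjusted p = 4.2e-07) with a wide gap between the groups. The gene 4930458D05Rik lies antisense to it, shares 1052 of its 3502 exon bases and rose as well, from 0.0998 ± 0.042 to 1.36 ± 0.54 CPM (SD, n = 4). Without strand in the counting the reads of that pair cannot be told apart, though the antisense gene held far fewer. Gpat4, its close relative, was at 79.3, 91.3, 91.2 and 87.5 CPM against 97.99, 90.5, 93.8 and 109.4 CPM and did not pass (0.17 ± 0.077, adjusted p = 0.13). Gpam, the mitochondrial form, was at 34.0, 29.8, 36.7 and 40.2 CPM with vehicle and 56.01, 54.8, 63.01 and 28.7 CPM with melatonin. Its melatonin replicate 4 lay below every vehicle library while the other 3 lay above them, so that Gpam did not pass (0.53 ± 0.22, adjusted p = 0.095) but passed without that library, at 0.73. Per kilobase of exon the vehicle order was Gpat4 at 13.1 ± 0.84, Gpam at 5.28 ± 0.66 and Gpat3 at 0.743 ± 0.07 CPM. With melatonin Gpat4 stood at 14.7 ± 1.2 CPM, and Gpam at 7.595 ± 2.3 and Gpat3 at 6.92 ± 1.04 CPM were no longer apart beyond their spread (SD, n = 4). That overlap rests on melatonin replicate 4, where Gpam lay below Gpat3 per kilobase. In the other 3 melatonin libraries every Gpam value per kilobase lay above every Gpat3 value.

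Of the lysophosphatidate acyltransferases, Agpat2, the form whose loss causes lipodystrophy, was at 36.2, 40.7, 38.6 and 36.1 CPM with vehicle and 47.7, 93.9, 100.8 and 81.2 CPM with melatonin. Melatonin replicate 1 was well under the other 3 yet above every vehicle library (1.09 ± 0.20, adjusted p = 0.0027). A 64-base overlap with the antisense gene Egfl7, which also rose, is part of the Agpat2 exons. Agpat1 varied within both groups, from 67.98 to 121 CPM with vehicle and from 74.7 to 158 CPM with melatonin (0.12 ± 0.28, adjusted p = 0.78). Agpat3 was steadier, at 142 to 153 CPM and 142 to 161 CPM (0.01 ± 0.061, adjusted p = 0.88). The interval of the Agpat3 difference, -0.11 to 0.13 on the log2 scale, is far narrower than that of Agpat1, -0.44 to 0.68.

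The lipins, phosphatases that turn phosphatidate into diacylglycerol, moved in opposite directions. Lpin1, the main form of adipose tissue, went from 35.3, 28.4, 38.4 and 41.0 CPM to 61.8, 63.9, 71.7 and 48.4 CPM (0.78 ± 0.14, adjusted p = 0.0017). Lpin3 (ENSMUSG00000027412, chromosome 2, 160880670 to 160906002 on the plus strand) went from 26.2, 23.4, 23.02 and 23.9 CPM to 7.28, 7.61, 7.35 and 7.56 CPM. The Lpin3 fall of 1.70 ± 0.079 on the log2 scale (adjusted p = 6.5e-07) was among the most even changes of the list, with 4 nearly equal melatonin libraries. Lpin2 was at 8.59 to 10.99 CPM with vehicle and 6.60 to 11.3 CPM with melatonin and did not pass (-0.08 ± 0.16, adjusted p = 0.73). Exon lengths merge all annotated transcripts (9665 bases for Lpin1, 3694 for Lpin3). Per kilobase of these exons Lpin3 stood above Lpin1 with vehicle, at 6.53 ± 0.38 against 3.70 ± 0.56 CPM. With melatonin Lpin3 stood below Lpin1, at 2.02 ± 0.043 against 6.36 ± 1.0 CPM (SD, n = 4). In CPM not divided by length, every Lpin1 value lay above every Lpin3 value in both groups. The order of the pair thus turned only per kilobase.

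The last acylation differed between its enzymes as well. Dgat1, a diacylglycerol acyltransferase of the endoplasmic reticulum (ENSMUSG00000022555, chromosome 15, 76502015 to 76511953 on the minus strand), went from 29.5, 37.7, 28.7 and 32.1 CPM to 67.96, 67.1, 68.9 and 64.7 CPM. Dgat2, an unrelated protein with the same activity, was at 104, 114, 121 and 105 CPM with vehicle and at 111, 121, 116 and 95.7 CPM with melatonin. Dgat1 thus rose by 1.07 ± 0.09 (adjusted p = 1.8e-05) with no overlap, and Dgat2 differed by -0.0007 ± 0.085, with an interval of -0.17 to 0.17. Dgat2 was still the more abundant per kilobase of exon with melatonin, at 36.0 ± 3.5 against 22.0 ± 0.59 CPM (SD, n = 4). Pnpla3, a droplet protein with lipase and acyltransferase activity, went from 2.29, 1.76, 2.61 and 2.11 CPM to 4.98, 3.92, 6.14 and 3.43 CPM (1.08 ± 0.20, adjusted p = 0.0025). Mogat1, which acylates monoacylglycerol, had 2, 0, 5 and 0 counts with vehicle and 2, 7, 0 and 4 counts with melatonin. In the libraries with 0 counts its limit is 3 counts, or 0.0573 to 0.0657 CPM of the library totals. Mogat1 had too few counts for the test, so no difference between the groups was assessed.

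Where several genes carry out the same kind of reaction, the share of 1 gene in the counts of its family was compared between groups. Such a share needs no library scaling. The members of a family need not act on the same chains, as with the elongases. In the lipins, Lpin1 held 51.0% ± 3.3 of the counts with vehicle and 78.4% ± 0.94 with melatonin (SD, n = 4), a difference of 27.4 points. Acsl1 held 23.6% ± 2.9 of its family with vehicle and 57.5% ± 7.8 with melatonin, and Dgat1 22.4% ± 2.5 and 37.8% ± 1.9. Agpat2 held 13.4% ± 1.1 and 23.7% ± 4.5. For these 4 families all melatonin libraries lay above all vehicle libraries, which gives an exact two-sided permutation p of 0.0286, the smallest that 4 against 4 libraries allow. After Benjamini-Hochberg adjustment over the 8 families compared that p is 0.0571, so none of the 8 passed, and 4 families at the smallest p cannot give a lower adjusted value. Without melatonin replicate 4 the adjusted exact p was 0.0457 for these 4 families and for Scd1. The unadjusted exact p of the 4 families was still 0.0286, the smallest that 3 against 4 libraries allow. Its adjusted value was lower only because Scd1 reached the same p. Leaving out any other library gave adjusted exact p of 0.0571 or more. Scd1 held 31.7% ± 1.3 of the Scd1 and Scd2 counts with vehicle and 36.7% ± 3.1 with melatonin (exact p = 0.0571, adjusted 0.0762), with melatonin replicate 4, at 32.4%, inside the vehicle range. Elovl6 held 20.5% ± 2.7 of the elongase counts and 16.6% ± 2.3 with melatonin (exact p = 0.0571, adjusted 0.0762). The shares of Acaca (92.8% ± 0.42 and 92.3% ± 1.2) and of Gpam (28.1% ± 2.9 and 28.95% ± 7.2) overlapped between groups, with adjusted exact permutation p of 0.56 and 0.83. Within the Gpam family the share of Gpat3 ran from 1.95% to 2.32% with vehicle and from 12.03% to 14.7% with melatonin, a value given without a test.

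**Figure D3:**
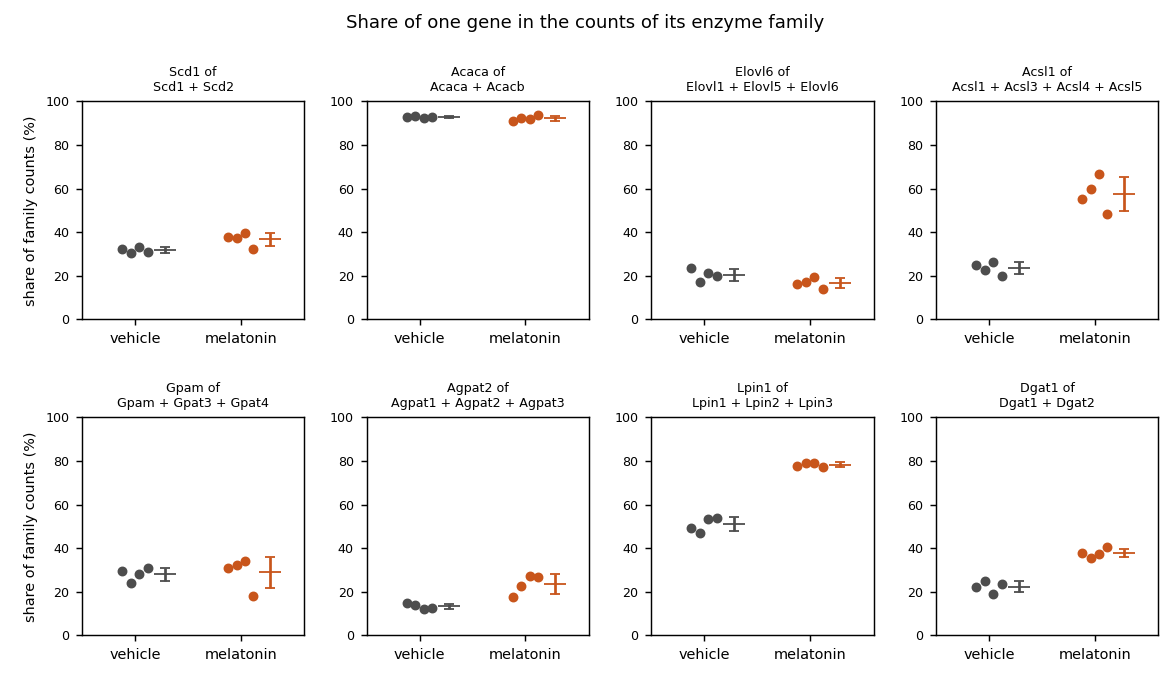
Share in percent of 1 gene in the summed counts of its enzyme family, 1 point per library (4 vehicle in grey, 4 melatonin in orange) with the mean and SD beside the points. Lpin1, Acsl1, Dgat1 and Agpat2 have no overlap between groups, and in the Gpam panel melatonin replicate 4 sits at 18.3%, below all others.

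The lower values of melatonin replicate 4 recurred through the list. Of the 24 members that rose, 16 (66.7%) had their lowest melatonin level in this library, as did 892 of the 2992 genes that rose in the whole table (29.8%). The members concerned include Fasn, Acly, Acaca, Scd1, Acsl1, Gpd1, Gpat3 and Lpin1. In Elovl1 and Acsl3, by contrast, it was the highest melatonin library. The summed level of 8 macrophage markers was 315 CPM in this library, 546 to 590.3 CPM in the other melatonin libraries and 457 to 705 CPM with vehicle. The summed myogenic markers were at 30.6 CPM in it, 78.0 to 116 CPM in the other melatonin libraries and 52.5 to 72.3 CPM with vehicle. The part of these cells in the result was not tested. Without melatonin replicate 4, 29 members were called in place of 28, the added ones being Acacb and Gpam and the lost one Elovl1.

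**Figure D4:**
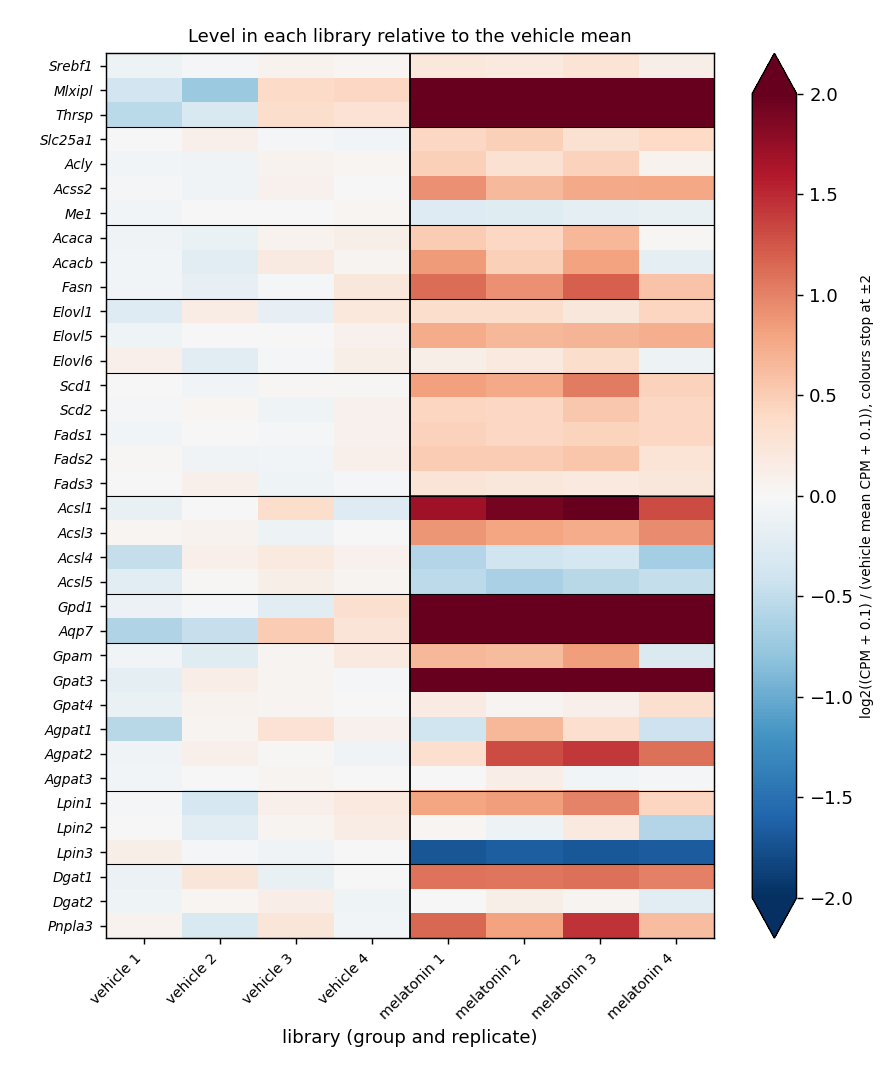
Level of each tested member in each library as log2 of its CPM over the vehicle mean (0.1 CPM added to both), with colours stopping at ±2 and lines between pathway steps. Melatonin replicate 4 is paler than the other melatonin libraries for Fasn, Acly, Acaca and Scd1, and blue for Acacb and Gpam.

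Adipocyte markers moved in the same direction as the members. Of 8 such markers tested, 7 rose, where 18.1% of all tested genes rose and 18.5% fell. The summed level of the adipocyte markers was 786 to 884 CPM with vehicle and 1945 to 2666 CPM with melatonin. The largest part of that sum was Lpl, at 590.5 to 680.3 CPM with vehicle and 1123 to 1638 CPM with melatonin. The hormone gene Adipoq was at 29.6 to 32.6 CPM with vehicle and 128 to 139 CPM with melatonin, so this marker was present in both groups. Retn did not pass, and Lep was not analysed here. Of 7 progenitor markers 4 fell (Ly6a, Dcn, Lum and Dpp4), while Pdgfra, Pdgfrb and Cd34 did not pass. Their summed level was 2485 to 2574 CPM with vehicle and 1527 to 1803 CPM with melatonin. The largest part of that drop was in Dcn, from 911 to 351 CPM. In bulk RNA a change in the share of cells of 1 type and a change in RNA per cell cannot be told apart. The endothelial list summed to 30.2 to 37.6 CPM with vehicle and 48.8 to 56.8 CPM with melatonin, but 1 of its 6 markers passed. That marker was Tek, from 17.1 to 35.3 CPM, while the other endothelial markers, Pecam1, Cdh5, Kdr, Cldn5 and Emcn, did not pass. The macrophage list held 2 markers that rose and 1 that fell. The pericyte markers summed to 100.5 to 133 CPM with vehicle and 92.4 to 135 CPM with melatonin, where 1 of 6 rose (Kcnj8, 1.56 ± 0.40) and 1 fell (Rgs5, -1.51 ± 0.25). The tenocyte markers summed to 943 to 1294 CPM and 1026 to 1238 CPM, nearly all of it Fmod, and 1 of 4 fell (Tnmd, from 19.8 to 11.2 CPM). The Schwann cell markers summed to 15.4 to 16.7 CPM and 17.03 to 19.7 CPM, with 1 of 3 tested higher (Sox10, from 5.85 to 9.90 CPM). The markers named singly here were chosen after their values were seen. None of the listed markers in the table was at 0 counts in all libraries. The part of any of these cells in the members' changes was not tested.

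Of 73 other pathway genes tested, 29 rose and 11 fell, with a median of 0.21. In either direction 54.8% passed, beside 36.5% of all tested genes. By list, in the order given from here on, 40.0%, 37.5%, 83.3%, 66.7%, 16.7%, 87.5%, 80.0%, 30.0% and 83.3% passed. The lists that control SREBP and ChREBP, that regulate acetyl-CoA carboxylase and of remaining glycerolipid genes thus lay near the share of all genes. Among 15 genes that control SREBP and ChREBP, 4 rose and 2 fell, the largest increases being those of the adipogenic factor genes Cebpa (87.8 to 442 CPM, 2.33 ± 0.13) and Pparg (10.9 to 46.7 CPM, 2.10 ± 0.10). The paralogs that hold SREBP in the endoplasmic reticulum went opposite ways, Insig2 falling from 56.6 to 40.8 CPM (-0.47 ± 0.10) and Insig1, named after its values were seen, rising from 114 to 139.6 CPM (0.30 ± 0.069). Srebf2, the factor gene of sterol synthesis, fell (-0.27 ± 0.084, adjusted p = 0.032). The Srebf2 call was lost with library totals, with the replicate number as a block, and without vehicle replicate 3 or 4 or melatonin replicate 2. The regulators of acetyl-CoA carboxylase gave 2 higher and 1 lower of 8. Mlycd, which breaks down malonyl-CoA, rose from 21.1 to 34.6 CPM (0.71 ± 0.078), and the kinase subunit genes Prkab1 (0.24 ± 0.082) and Prkab2 (-0.43 ± 0.14) passed narrowly, at adjusted p of 0.044 and 0.037. The Prkab1 call was lost with relative log expression factors and with the replicate number as a block. It was also lost without vehicle replicate 2, 3 or 4 or melatonin replicate 1 or 2. That of Prkab2 was lost without vehicle replicate 1, 2 or 4, melatonin replicate 1, 2 or 3, or with library totals.

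The list of NADPH and malic enzymes was mixed, with 3 of 6 higher and 2 lower. Idh1, the cytosolic isocitrate dehydrogenase gene, rose from 163 to 260.2 CPM (0.67 ± 0.074), and G6pdx, the entry enzyme of the pentose phosphate route, by 0.21 ± 0.058. The G6pdx call was lost without vehicle replicate 1 and with the replicate number as a block. Pgd, which follows it (-0.23 ± 0.067), and the mitochondrial malic enzyme gene Me2 (-0.33 ± 0.078) fell, like Me1, and with library totals both calls were lost. The Pgd call was also lost with the replicate number as a block and without vehicle replicate 2 or 3 or melatonin replicate 1 or 3. In the elongation cycle 5 of 9 rose and 1 fell. The dehydratase gene Hacd2 rose (36.1 to 56.7 CPM) while its paralog Hacd1 fell (30.9 to 17.2 CPM), and Elovl4, an elongase of very long chains, rose from 2.09 to 5.84 CPM. Of 6 other desaturases and their partners the scarce paralog Scd4 passed, from 0.316 to 0.692 CPM (adjusted p = 0.037). The Scd4 call was lost with limma-voom and with the replicate number as a block. It was also lost without vehicle replicate 1, 2 or 4 or melatonin replicate 1, 3 or 4.

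The list of other acyl-CoA synthetases, fatty acid transporters and acyl-CoA binding proteins again went both ways, with 3 of 8 genes higher and 4 lower. Acsbg1, a very long chain synthetase gene, had 153, 111, 85 and 130 counts with vehicle and 2, 4, 4 and 0 counts with melatonin, the steepest fall of the pathway genes examined (-5.49 ± 0.42, adjusted p = 9.6e-06). Acss3 rose from 1.62 to 5.66 CPM and the fatty acid transporter gene Slc27a4 from 86.3 to 108 CPM, while Acbd3, a Golgi acyl-CoA binding protein gene, fell from 69.5 to 51.4 CPM. Mitochondrial fatty acid synthesis had 4 of 5 genes higher, including the acyl carrier gene Ndufab1 (60.6 to 88.6 CPM) and Cbr4 (8.28 to 11.3 CPM). Of 10 remaining glycerolipid genes 2 rose and 1 fell, namely Gpd1l (23.5 to 36.98 CPM), the scarce Gpat2 (0.186 to 0.688 CPM) and the monoacylglycerol acyltransferase gene Mogat2 (0.83 to 0.183 CPM). Among genes that assemble lipid droplets, of which Plin1 and Cidec are also on the adipocyte list, 5 of 6 rose, led by the coat genes Plin1 (3.76 ± 0.15) and Plin4 (10.3 to 59.2 CPM).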

How the data were processed

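RNA of 8 libraries was sequenced, and the authors deposited 1 table of whole-number counts per Ensembl gene. Per the submitters' processing notes, build mm10 was used with HISAT2 2.0, StringTie 1.3.3b, Trimmomatic 0.36, DESeq2 1.12.4, FastQC 0.11.2 and bedtools 2.26.0, with no roles stated. Counting program and strand setting: not given in the sources used here. An extraction protocol in the labels names longissimus dorsi, unlike the other labels, and this was left unresolved. Columns prefixed con were read as vehicle, the only group besides melatonin. Symbols, positions and exon lengths came from GENCODE M21 (20720 of 20781 IDs matched). Each exon length merges the exons of all annotated transcripts of a gene, so it can exceed the length of a single mRNA. Genes were filtered with filterByExpr, scaled by TMM and tested by the robust quasi-likelihood method of edgeR 4.0.16 on a 2-group model, and the method was tested on simulated data. The standard error is the log2 fold change over the square root of F. Library pairs within a group differed by 20.7 to 65.1 in chi-square per degree of freedom, so each counted as 1 replicate. The limit for 0 counts covers counting error only, and 95% intervals are a normal approximation from the standard error. As alternatives, other scaling and filters, a replicate block, each library left out, limma-voom (limma 3.58.1) and DESeq2 1.42.0 were run. All 37 members are named. From each list of other pathway genes the 2 with the smallest p in each direction among those that passed are named, and overlapping genes were chosen after their values were seen. Members and lists were chosen with earlier results of these data known.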

Additional observations from a re-analysis of the deposited data

Results flagged for a closer look

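Among 88 groups of 4 libraries checked (CPM of each tested member and the family shares, by group), 2 held a library far from its other 3, where chance flags about 1 in 20 groups. Scd2 was at 1369 CPM in melatonin replicate 3 and at 1250.05 to 1269 CPM in the other melatonin libraries. Fads2 was at 147 CPM in melatonin replicate 4 and at 173 to 178 CPM in the other melatonin libraries. In both genes these libraries still lay above every vehicle library.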

How the results depend on the processing

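Of the 28 called members, 21 kept their call and direction under every alternative in which they were tested (up to 15). The number of members called ran from 24 to 29 on leaving out each library, and was 29 with DESeq2, 28 with limma-voom and 25 with the replicate number as a block, which lost Srebf1, Me1 and Fads3. Same-numbered libraries did not deviate together (correlations of -0.046 to 0.035), so these values showed no pairing by number. Whether same-numbered libraries came from the same animals was not tested. The 4 lower members became 2 with library totals and 2 to 4 on leaving out each library. Over all genes, 5099 were higher with library totals (2992 with TMM factors) and 2030 were lower with at least 10 CPM in 4 libraries (3062), where fewer genes were tested. Leaving out each library moved the share differences to 4.08 to 6.50 points for Scd1, -4.96 to -2.77 for Elovl6, -0.962 (without melatonin replicate 4) to -0.0229 (without melatonin replicate 1) for Acaca, 30.7 to 36.97 for Acsl1, -0.932 to 4.41 for Gpam, 9.08 to 12.3 for Agpat2, 26.1 to 28.4 for Lpin1 and 14.3 to 16.2 for Dgat1. The Gpam difference changed sign, at -0.508, -0.222 and -0.932, without vehicle replicate 2 or melatonin replicate 2 or 3. Paired sign-flip tests of the shares gave the same 8 differences (5.05, -0.478, -3.87, 33.9, 0.845, 10.3, 27.4 and 15.4 points), with adjusted p of 0.167 or more. Among members that did not pass, signs changed for Agpat1 (-0.11 to 0.28 on leaving out a library), Agpat3 (-0.018 to 0.051), Lpin2 (0.077 with library totals and -0.17 to 0.060 on leaving out a library) and Dgat2 (0.16 with library totals, 0.0041 without a filter and -0.035 to 0.073 on leaving out a library). The cause was not tested. Depth limits Mogat1, Aqp7 and Mlxipl most.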
